A study of Mus musculus with 768 samples.

Results

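Among mesenchymal cells of mouse mammary tumors, the vascular CAF-like (vCAF-like) cells were chosen by the levels of 12 marker genes and divided by their mRNA level of Acta2, the gene of smooth muscle α-actin, and cells at the upper end were compared with cells at the lower end within each tumor. CAF stands for cancer-associated fibroblast. Wells with at least 10000 endogenous reads and 1000 detected genes were kept, which left 717 of 768. A well was called vCAF-like when V, the mean log2(RPKM + 1) of Rgs5, Higd1b, Kcnj8, Rgs4, Abcc9 and Gja4, was at least 4 and exceeded M, the same mean over the matrix fibroblast genes Dcn, Lum, Mfap5, Olfml3, Smoc2 and Serpinf1. RPKM scales the reads of a gene by its length and by the mapped reads of the cell. Of the 496 vCAF-like cells, 202 had Acta2 at 10 or above on the log2(RPKM + 1) scale (Acta2-high), 157 had it at 8 or below (Acta2-low), and 137 lay between (Acta2-middle). The comparison therefore covers 359 cells.

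The mice were of the MMTV-PyMT model and 14 weeks old, and all cells came from their mammary carcinomas. In this model the mammary tumor virus promoter drives the polyoma middle T oncogene in mammary epithelium. Sorting had kept cells negative for EpCAM, CD45, CD31 and NG2, proteins that mark epithelium, leukocytes, endothelium and pericytes. Smart-seq2 libraries, which read whole transcripts without molecular identifiers, were made from 2 tumors, each on a 384-well plate of its own, so that tumor and plate cannot be told apart. No treatment or genotype separates the Acta2 classes, and both classes were taken from each tumor, which is the replicate (n = 2).

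Mural cells wrap the outside of blood vessels. Those of small capillaries, the pericytes, share an endothelial basement membrane and carry little contractile machinery, whereas smooth muscle cells of arterioles and larger vessels hold bundles of smooth muscle α-actin and myosin that set the vessel's diameter. Smooth muscle α-actin is also the usual protein marker of activated fibroblasts, and its gene, like many genes of the contractile apparatus, is a target of serum response factor (SRF) and its co-activators of the myocardin family.

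The values of Acta2 describe the choice and were not tested. In tumor 1, 118 cells were Acta2-high, with a median log2(RPKM + 1) of 11.2 (range 10.0 to 13.3), and 67 were Acta2-low, with a median of 5.63 (range 0 to 7.89). In tumor 2, 84 cells were Acta2-high, with a median of 11.1 (range 10.0 to 13.4), and 90 were Acta2-low, with a median of 5.00 (range 0 to 7.98). The distribution had no gap at either limit. The lowest Acta2-high cells stood at 10.01 and 10.00 in tumors 1 and 2, and the highest cells just under that limit at 9.96 and 9.97. The highest Acta2-low cells stood at 7.89 and 7.98, and the next cells above them at 8.12 and 8.01. No Acta2 read was counted in 4 and 13 of the Acta2-low cells. For V, the lowest member stood at 4.32 and the nearest well below the limit at 3.9993.

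**Figure D1:**
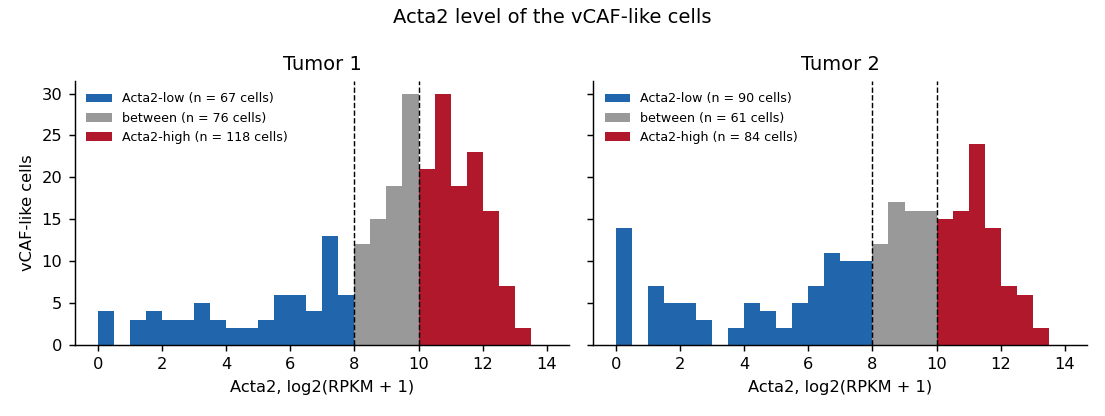
Number of vCAF-like cells (vertical axis) by Acta2 level in bins of log2(RPKM + 1) (horizontal axis), in a panel for each tumor, with the Acta2-low cells in blue, those between in gray and the Acta2-high cells in red, and dashed lines at 8 and 10. The counts run on without a gap across both limits, and the medians of the outer classes are 11.2 and 5.63 in tumor 1 and 11.1 and 5.00 in tumor 2.

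Acta2-high cells made up 45.2% of the vCAF-like cells of tumor 1 (95% exact binomial interval 39.1 to 51.5, counting error only) and 35.7% of those of tumor 2 (29.6 to 42.2). Acta2-low cells made up 25.7% (20.5 to 31.4) and 38.3% (32.1 to 44.8). The larger class was thus the Acta2-high one in tumor 1 and the Acta2-low one in tumor 2 by a narrow margin.

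The labelled identity was checked with genes outside the rule. The summed level of 10 other vascular CAF markers was 8349 and 8261 counts per 1000000 endogenous reads (CPM) in Acta2-high cells, and 8471 and 8567 CPM in Acta2-low cells of tumors 1 and 2. The sums were thus close, although 6 of the 10 genes were higher in both tumors and Pdgfrb, described below, was lower. Cspg4, the gene of the NG2 protein used to gate cells out, was at 371 and 515 CPM in Acta2-high and at 344 and 394 CPM in Acta2-low cells. Epcam, the gene of the epithelial gate, was read in 3 of 118 Acta2-high and 1 of 67 Acta2-low cells of tumor 1, and in 9 of 84 and 8 of 90 cells of tumor 2. Leaving out cells with a read of Epcam, Pecam1 or Ptprc, a choice made after seeing the data, gave 130 higher and 59 lower genes in the comparison described below, in place of 131 and 68. The endothelial genes Pecam1, Cdh5 and Kdr were at 0 in all 4 sums, as were the leukocyte genes Tyrobp and Cd3e and the adipocyte genes Adipoq, Plin1, Cidec and Cfd. The summed levels of the whole marker lists ranged from 716 to 946 CPM for 11 endothelial genes, mostly Esam and Emcn, from 28.0 to 243 CPM for 12 epithelial genes, from 1.46 to 14.6 CPM for 9 myoepithelial genes, from 0.945 to 12.6 CPM for 10 immune genes, from 568 to 893 CPM for 7 adipocyte genes and from 0.344 to 1.43 CPM for 8 skeletal muscle genes. The highest epithelial sum was that of the Acta2-low cells of tumor 2. In the same library 8 developmental CAF markers summed to 354.5 CPM, against 13.3, 19.9 and 80.2 CPM in the others. The 10 matrix CAF markers outside the rule summed to 236 and 576 CPM in Acta2-high and to 159 and 224 CPM in Acta2-low cells.

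Acta2-high cells were read more deeply. Their median was 225368.5 and 219617.5 endogenous reads per cell in tumors 1 and 2, against 169368 and 167794.5 in Acta2-low cells, and kept wells ranged from 10281 to 1190516. The share of reads from the ERCC spike-in RNA, a fixed amount of foreign RNA added to each well, was 12.4% and 9.50% in Acta2-high and 16.5% and 16.1% in Acta2-low cells (medians). With cells thinned to 50000 reads, which left out 1 Acta2-high and 12 Acta2-low cells with fewer, the median number of detected genes was 3760.5 and 4080 in Acta2-high cells, against 3298 and 3297.5 in Acta2-low cells. Single Acta2-low wells of tumor 2 reached 1034936 reads, 8104 genes, 8021 genes after thinning, and a spike-in share as low as 0.43%. In Acta2-high cells of that tumor the thinned maximum was 5631 genes and the lowest spike-in share 3.02%. Whether such wells carried the epithelial and developmental CAF reads of that Acta2-low library was not tested.

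Counts were summed over the cells of each class and tumor, which gave 4 libraries of 27365514 and 19639335 reads (Acta2-high, tumors 1 and 2) and 11641844 and 16605277 reads (Acta2-low). They were compared with edgeR's quasi-likelihood test with the tumor as a block, and a gene was called at a Benjamini-Hochberg adjusted p of at most 0.05 over 11202 genes. Of these, 131 genes (1.17%) were higher and 68 (0.607%) were lower in Acta2-high cells, and 1510 had an unadjusted p under 0.05. The median log2 fold change of all tested genes was 0.00. All 199 called genes had the same sign in both tumors, as did 6847 of all 11202 tested. Called genes were chosen on these 4 libraries. Where their libraries are said below not to overlap, this describes the values and adds no support to the call. Between 4 libraries in 2 tumors the test has 1 residual degree of freedom, and without the tumor block 33 genes were higher and 7 lower. Those kept without the block included Tagln, Myh11, Mylk, Actg2, Tpm1, Tpm2, Lmod1, Cnn1, Cnn2, Csrp1, Actb, Flna, Vcl, Zyx, Ctgf, Tgfb3, Pdgfb, Mmp11, Bmf and Chchd10, but not Myl9, Cyr61, Steap4, Pdgfrb or Serpine2. Scaling to the spike-ins in place of the endogenous reads moved the median of all genes to 0.70, so every change below is relative to the endogenous reads. With the spike-ins 36 of the 68 lower genes stayed called. With the same thinning, which leaves out those 13 cells, 185 genes were higher and 98 lower, among them 128 of the 131 and 59 of the 68. The smallest change among the called genes was 0.43 on the log2 scale.

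**Figure D2:**
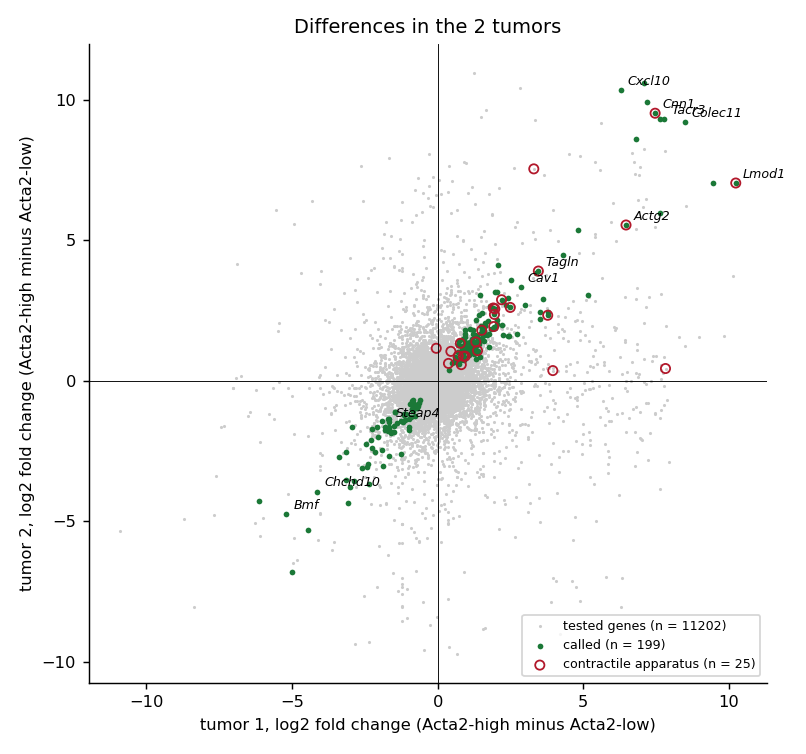
Log2 fold change, Acta2-high over Acta2-low, of each of the 11202 tested genes in tumor 1 (horizontal axis) and tumor 2 (vertical axis), from reads scaled within each tumor with 0.5 added, with called genes in green and contractile genes circled in red. All 199 called genes have the same sign in both tumors.

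Of 25 tested genes of the smooth muscle contractile apparatus, 15 were higher in Acta2-high cells and 0 lower, against 1.17% and 0.607% of all tested genes. The list had a median log2 fold change of 2.13, beside 0.00 for all genes, and 24 of the 25 were higher in both tumors. The genes that passed were Tagln, Myh11, Cnn1, Cnn2, Myl6, Myl9, Mylk, Actg2, Tpm1, Tpm2, Lmod1, Cald1, Csrp1, Myom1 and Mustn1. At an adjusted p of 0.05, between 10 and 24 genes of the list were called in the other fits, with 10 without the tumor block, and at an adjusted p of 0.001 Tagln and Actg2 were the 2 called.

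The promoters of Acta2 and of 3 of the called genes are shown because they hold the DNA element through which SRF acts, the CArG box. They are the windows of RefSeq on GRCm38.p6 from 250 bases before to 50 bases after the transcription start, 5′ to 3′ on the gene's strand, with CArG boxes in capitals, a box with 1 G or C in its A/T core included. The Acta2 window is chr19:34255324-34255623 on the minus strand, that of Myl9 is chr2:156775214-156775513, that of Cnn2 is chr10:79988350-79988649 and that of Vcl, which encodes the adhesion protein vinculin, is chr14:20929148-20929447, all 3 on the plus strand.
Acta2: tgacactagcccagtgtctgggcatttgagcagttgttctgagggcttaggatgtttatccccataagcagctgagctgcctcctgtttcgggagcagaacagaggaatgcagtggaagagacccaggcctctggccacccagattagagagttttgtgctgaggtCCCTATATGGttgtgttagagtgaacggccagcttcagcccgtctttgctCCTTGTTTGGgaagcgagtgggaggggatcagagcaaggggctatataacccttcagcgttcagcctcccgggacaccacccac
Myl9: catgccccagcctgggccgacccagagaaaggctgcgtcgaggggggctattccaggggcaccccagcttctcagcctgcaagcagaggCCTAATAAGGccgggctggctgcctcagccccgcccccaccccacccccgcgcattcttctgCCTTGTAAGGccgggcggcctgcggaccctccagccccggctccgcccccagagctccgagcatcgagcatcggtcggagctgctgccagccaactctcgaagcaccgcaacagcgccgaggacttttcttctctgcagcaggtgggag
Cnn2: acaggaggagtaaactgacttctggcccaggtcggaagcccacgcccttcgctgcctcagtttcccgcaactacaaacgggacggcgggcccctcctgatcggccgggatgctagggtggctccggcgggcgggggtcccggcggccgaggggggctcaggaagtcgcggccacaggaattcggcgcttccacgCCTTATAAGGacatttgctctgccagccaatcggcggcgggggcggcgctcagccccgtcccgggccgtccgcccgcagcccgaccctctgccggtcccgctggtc
Vcl: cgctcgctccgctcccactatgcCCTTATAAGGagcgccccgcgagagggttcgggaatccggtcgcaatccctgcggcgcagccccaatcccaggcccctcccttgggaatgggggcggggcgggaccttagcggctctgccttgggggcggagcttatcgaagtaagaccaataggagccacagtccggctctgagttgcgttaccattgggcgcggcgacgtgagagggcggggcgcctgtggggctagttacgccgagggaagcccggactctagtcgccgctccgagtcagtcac
The element is a palindrome, so both strands were searched. The Acta2 window had no box with an unbroken A/T core and 2 with 1 G or C in it, which start 84 and 34 bases before the transcription start. Myl9 had a full box starting 161 bases and a variant 99 bases before the start, Cnn2 a full box at 56 bases and Vcl a full box at 227 bases. Of all 32851 windows in the table, 1.63% held a full box, 8.5% a variant and 14.7% the sequence CATTCC, the element bound by TEAD factors, on either strand. Windows were found for 48 of the 58 contractile, adhesion and other listed genes searched. Of the 21 called genes with a window, 5 held a full box (Cnn2, Myl6, Myl9, Myom1 and Vcl) and 10 held CATTCC, and of the 24 genes that were tested and not called, 5 held a full box and 6 held CATTCC. A match describes these letters and is not evidence of binding. No window was given for Tagln, Actg2 and Myh11.

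Tagln, which encodes the actin-binding protein transgelin (SM22α), had the highest correlation with Acta2 across cells after Actb, and is a usual marker of smooth muscle. It had 1279.5 and 1076 CPM in the Acta2-high cells of tumors 1 and 2, and 116 and 71.7 CPM in the Acta2-low cells. Both Acta2-high libraries thus stood far above both Acta2-low ones, by 13.3-fold (log2 fold change 3.73 ± 0.17 SE, edgeR quasi-likelihood test, Benjamini-Hochberg adjusted p = 0.000583). A Tagln read was found in 98.3% and 95.2% of Acta2-high cells and in 50.7% and 48.9% of Acta2-low cells. Its Acta2-middle level, 321 and 253 CPM, lay between.

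The myosin subunits and the kinase that activates them were higher together. Myh11, the smooth muscle myosin heavy chain, was at 448 and 436 CPM in Acta2-high cells and at 116 and 84.8 CPM in Acta2-low cells (4.61-fold, log2 fold change 2.20 ± 0.19, edgeR adjusted p = 0.00389). Myl9, the regulatory light chain, was at 2781 and 2180.2 CPM against 713 and 370.3 CPM (4.96-fold, 2.31 ± 0.16, edgeR adjusted p = 0.00236). Mylk, the kinase that phosphorylates this light chain, was at 1832 and 1998 CPM against 738 and 766 CPM (2.63-fold, 1.40 ± 0.11, edgeR adjusted p = 0.00336). For none of these 3 genes, already called on these libraries, did the libraries of the classes overlap. Myl6, the essential light chain, was higher by 2.41-fold.

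Tropomyosins and further proteins of the thin filament gave the same picture. Tpm1 was at 1832 and 1858 CPM in Acta2-high cells against 399.9 and 251 CPM in Acta2-low cells (6.01-fold), and Tpm2 at 697 and 671 CPM against 185 and 111 CPM (4.93-fold). Csrp1, a LIM protein of actin bundles, was at 595 and 591 CPM against 105 and 96.7 CPM (6.07-fold), and Cnn2, a calponin, at 831 and 720.2 CPM against 219 and 189 CPM (3.93-fold). The Acta2-high libraries were the higher ones for all 4 genes. Cald1, caldesmon, was detected in every cell of both classes and was higher by 1.90-fold, from 709 and 853 CPM in Acta2-low to 1311 and 1563 CPM in Acta2-high cells.

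**Figure D3:**
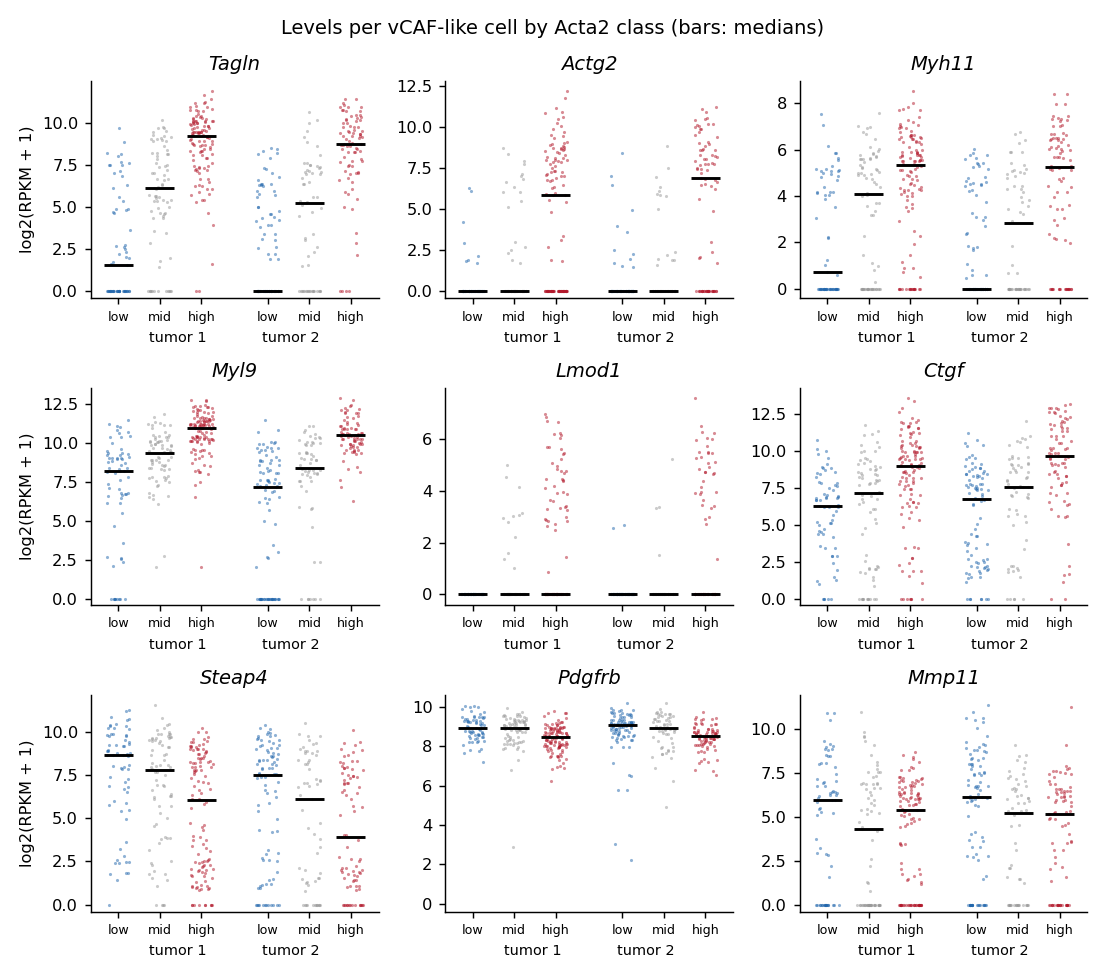
Level of 9 genes in log2(RPKM + 1) (vertical axes) in each vCAF-like cell, by Acta2 class (low, middle, high) and tumor, each point being 1 cell and each bar a median. The medians of Tagln are 1.53 and 0 in Acta2-low and 9.22 and 8.74 in Acta2-high cells of tumors 1 and 2, while those of Steap4 go from 8.64 and 7.53 to 6.04 and 3.89.

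Other contractile genes were found in part of the Acta2-high cells. Actg2, which encodes the enteric form of smooth muscle γ-actin, was at 512 and 542 CPM in Acta2-high cells and at 5.76 and 11.6 CPM in Acta2-low cells, a 65.1-fold difference (log2 fold change 6.03 ± 0.29, edgeR adjusted p = 0.000583). It was read in 57.6% and 66.7% of Acta2-high cells and in 11.9% and 13.3% of Acta2-low cells, and, with cells thinned to 50000 reads, in 55.9% and 62.7% against 4.92% and 5.95%. Actg2, Acta1, Actc1 and Actg1 are near-identical to Acta2 in their coding parts, and how reads shared between them were counted is not given in the sources used here, so the values of Actg2 and Actg1 are uncertain. Acta1, the skeletal muscle actin, was at most at 0.713 CPM and Actc1, the cardiac actin, at most at 3.14 CPM in any library, where Acta2 itself was at 8832.5 and 8600.1 CPM in Acta2-high cells.

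Lmod1, leiomodin, which starts actin filaments in smooth muscle, was at 51.7 and 67.4 CPM in Acta2-high cells and at 0 and 0.482 CPM in Acta2-low cells (edgeR adjusted p = 0.00829). Its reads were in 39.0% and 42.9% of Acta2-high cells and in 0% and 2.22% of Acta2-low cells. Cnn1, the calponin of differentiated smooth muscle, had 622 and 436 reads in Acta2-high cells against 1 and 0 in Acta2-low cells (edgeR adjusted p = 0.0148), a ratio of 636 after scaling to library totals, with a counting interval of 114 to 25136. Cnn1 was read in 11.02% and 15.5% of the Acta2-high cells. Myom1 was at 90.2 and 63.8 CPM against 6.53 and 12.6 CPM, and Mustn1 at 268 and 249 CPM against 93.9 and 71.7 CPM. All of these libraries kept the order of the classes. Some contractile genes often used as markers did not pass the test. Des, desmin, was at 593 and 438 CPM against 458 and 285 CPM (edgeR adjusted p = 0.165), Smtn, smoothelin, at 96.6 and 134 CPM against 59.0 and 72.7 CPM (edgeR adjusted p = 0.183), and Csrp2 at 279.6 and 322 CPM against 163 and 128 CPM (edgeR adjusted p = 0.0504).

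Some genes of the non-muscle actin cytoskeleton were also higher. Actb, β-actin, was at 9725 and 9346 CPM in Acta2-high cells against 3192 and 2809.9 CPM in Acta2-low cells (3.29-fold, log2 fold change 1.72 ± 0.08, edgeR adjusted p = 0.000583), and every cell had it. The other non-muscle actin, Actg1, was at 29.9 and 24.03 against 7.99 and 6.68 CPM and did not pass (edgeR adjusted p = 0.159). Of 28 tested genes of focal adhesions and the actin cytoskeleton, 10 were higher and 0 lower (list median log2 fold change 0.71), against 1.17% and 0.607% of all tested genes. The 10 were Flna, Actn4, Vcl, Zyx, Lims2, Itga1, Itgb1, Palld, Cfl1 and Tmsb4x. Flna, the actin crosslinker filamin A, was at 2718 and 2907 CPM against 884 and 748 CPM (3.57-fold). Vcl was at 1289.8 and 1416 CPM against 456 and 436 CPM (3.13-fold), and Zyx, zyxin, which collects at stretched actin fibers, at 255 and 314 CPM against 66.8 and 85.5 CPM (3.87-fold). These libraries did not overlap between the classes. The integrins Itga1 and Itgb1, a collagen receptor pair, differed by 1.65-fold and 1.52-fold. Without the tumor block 3 genes of this list were called, and at an adjusted p of 0.001 edgeR called 0.

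The regulators of the contractile genes were themselves at low levels. Of 10 tested SRF and myocardin-family genes, 0 passed edgeR's test, 2 had an unadjusted p under 0.05, and DESeq2 called 2 higher. Srf was at 53.5 and 70.0 CPM in Acta2-high cells and at 11.3 and 35.8 CPM in Acta2-low cells (edgeR adjusted p = 0.145). Myocd, myocardin, was at 12.6 and 30.8 CPM against 3.01 and 1.51 CPM (edgeR adjusted p = 0.143), with reads in 16.9% and 27.4% of Acta2-high cells and 2.99% and 1.11% of Acta2-low cells. For both genes each Acta2-high library was above both Acta2-low ones, yet neither passed the test. Mkl1 and Mkl2, the myocardin-related factors, were at 34.8 to 112 CPM in both classes and did not pass.

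Among the ion channels, Kcnmb1, the β1 subunit of the calcium-activated potassium channel of smooth muscle, was at 154 and 117 CPM in Acta2-high cells against 50.9 and 37.9 CPM in Acta2-low cells (3.17-fold, edgeR adjusted p = 0.0245), with reads in 55.1% and 66.7% of Acta2-high and 23.9% and 17.8% of Acta2-low cells. Each Acta2-high library thus exceeded both Acta2-low ones. Trpc6, a calcium entry channel, was at 552 and 469.5 against 506 and 372 CPM, with overlapping libraries.

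Receptors and signaling genes that set vessel tone did not part the classes at this threshold. Of 15 tested vasoactive receptors 0 passed (list median -0.56, 3 with an unadjusted p under 0.05, and DESeq2 called 1 higher and 2 lower). Ednra, the endothelin A receptor, was at 634 and 645 CPM in Acta2-high and at 923 and 1026 CPM in Acta2-low cells (edgeR adjusted p = 0.0966), and Agtr1a, the angiotensin II receptor, at 187 and 208 against 399 and 231 CPM. Both had their higher values in Acta2-low cells, but with spike-in scaling the differences were 0.14 and 0.12 on the log2 scale, above 0. Of 8 nitric oxide and cGMP genes edgeR called 0 (2 with an unadjusted p under 0.05, DESeq2 0), and of 6 RGS genes other than Rgs5 and Rgs4 it called 0 (1 with an unadjusted p under 0.05, DESeq2 0).

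Notch signaling from endothelium maintains mural cells, and Notch3 is its main receptor in them. Of 14 tested Notch genes edgeR called 0 (list median -0.11, 6 with an unadjusted p under 0.05, and DESeq2 called 1 higher and 1 lower). Notch3 was at 812 and 925 CPM in Acta2-high against 621 and 748 CPM in Acta2-low cells (edgeR adjusted p = 0.225), and Heyl, a Notch target, at 550.2 and 506 against 796 and 704 CPM (edgeR adjusted p = 0.184). The transcription factors of mural cells gave 1 call in 24, beside the 1.17% of all tested genes called higher. It was Klf6, an immediate early factor, at 435 and 545 CPM against 225 and 172 CPM.

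Genes of the matricellular CCN family, which are secreted, were higher in Acta2-high cells. Of 17 tested YAP and CCN genes 4 were higher and 0 lower (list median 1.21), against 1.17% and 0.607% of all tested genes. Without the tumor block 1 of them was called, and 2 with cycling cells or with cells of M above 2 left out. Ctgf (Ccn2), which is secreted and is a usual readout of YAP and TAZ activity, was at 3197 and 5734 CPM in Acta2-high cells against 604 and 748 CPM in Acta2-low cells (6.58-fold, log2 fold change 2.72 ± 0.14, edgeR adjusted p = 0.000871). Cyr61 (Ccn1) was at 1685 and 1811 CPM against 257 and 570.2 CPM (4.72-fold, edgeR adjusted p = 0.00978). The Acta2-high libraries of both genes exceeded every Acta2-low one. Wisp1 (Ccn4) and Ajuba, a LIM protein of the pathway, were higher by 2.98-fold and 2.02-fold. The mRNAs of the co-activators themselves did not pass: Yap1 was at 83.8 and 128 against 125 and 136 CPM, and Wwtr1, which encodes TAZ, at 189.8 and 239 against 259.8 and 305 CPM.

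TGF-β induces smooth muscle genes in fibroblasts and mural cells. Of 25 tested TGF-β pathway genes 3 were higher and 1 lower (list median 0.18), against 1.17% and 0.607% of all tested genes. Without the tumor block 1 was higher and 0 lower. Tgfb2 was at 128 and 154 CPM in Acta2-high cells against 27.7 and 39.0 CPM in Acta2-low cells (4.41-fold, edgeR adjusted p = 0.0126). Tgfb3 was at 407 and 413 CPM against 134 and 157 CPM (2.92-fold, edgeR adjusted p = 0.00978). In both genes the classes did not overlap. The ligand gene Tgfb1 did not pass, at 11.5 and 9.37 CPM against 9.96 and 9.09 CPM (edgeR adjusted p = 0.950). The third higher gene, Tgfb1i1, encodes Hic-5, an adhesion protein, and the gene that was lower is Serpine2, described with the proteases.

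The ligand genes Pdgfb and Pdgfa were higher and the receptor gene Pdgfrb was lower, while Pdgfc and Pdgfd did not pass (edgeR adjusted p = 0.452 and 0.728). PDGF-B from endothelium recruits pericytes through the receptor encoded by Pdgfrb. Pdgfb had 813 and 551 reads in Acta2-high cells against 0 and 3 in Acta2-low cells, a ratio of 273 after scaling to library totals (counting interval 93.3 to 1326.5, edgeR adjusted p = 0.0138), and was read in 17.8% and 16.7% of Acta2-high cells. Pdgfa was at 304 and 334 CPM against 166 and 119.7 CPM (2.34-fold, edgeR adjusted p = 0.0391). Pdgfrb was at 2254 and 2222 CPM in Acta2-high and at 3421 and 3578 CPM in Acta2-low cells (1.51-fold lower, log2 fold change -0.60 ± 0.09, edgeR adjusted p = 0.0311), with reads in every cell of both classes. With spike-in scaling the sign of the Pdgfrb difference turned (log2 fold change 0.10). Mcam (CD146), an adhesion molecule of mural cells and endothelium, was higher, at 2547 and 2880.1 against 1457 and 1727 CPM. In all, 3 genes of 21 pericyte surface and PDGF genes were higher and 2 lower, against 1.17% and 0.607% of all tested genes. Without the tumor block 1 was higher and 0 lower.

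The other lower gene of that list was Steap4, a metalloreductase found in capillary pericytes. It was at 651 and 401 CPM in Acta2-high cells and at 2086 and 1114 CPM in Acta2-low cells (2.89-fold lower, log2 fold change -1.53 ± 0.12, edgeR adjusted p = 0.00336). The order held within each tumor and between them. Per gene length, the median cell had 6.04 and 3.89 for Steap4 on the log2(RPKM + 1) scale in the Acta2-high class and 8.64 and 7.53 in the Acta2-low class.

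The pericyte genes of the rule did not all behave alike, and their values are given as a description. Rgs5, a regulator of G protein signaling and the most abundant of them, was at 12790 and 10797 CPM in Acta2-high and at 10586 and 11367 CPM in Acta2-low cells, with overlapping libraries. Kcnj8 and Abcc9 encode the pore and the regulatory subunit of the ATP-sensitive potassium channel of pericytes. Kcnj8 was at 1320 and 960 CPM against 3056 and 3323 CPM, and Abcc9 at 1667 and 2053 CPM against 2577 and 3262 CPM. Rgs4 was at 1752 and 1609 CPM against 2969 and 4262 CPM. Kcnj8, Abcc9 and Rgs4 were thus at their higher values in Acta2-low cells of both tumors, while Higd1b, at 983 and 1022 against 937 and 1192 CPM, and Gja4, at 502 and 445 against 395 and 805 CPM, overlapped.

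Matrix genes were counted in 3 lists, beside the 1.17% of all tested genes called higher. Among 16 basement membrane genes 1 was higher and 0 lower (list median 0.04): Sparc, a collagen-binding glycoprotein, at 10842 and 9242 against 8296 and 7116 CPM. Col4a1, the main chain of the basement membrane, was at 6162 and 7317 CPM in Acta2-high and at 6882 and 7363 CPM in Acta2-low cells, overlapping. Of 17 interstitial collagen and fibronectin-group genes 3 were higher and 0 lower (list median 0.31). Tnc, tenascin C, a matrix protein of injured and stretched tissue, was at 247 and 320.2 CPM against 63.5 and 35.7 CPM (6.11-fold, edgeR adjusted p = 0.0130). Thbs1, thrombospondin 1, which activates latent TGF-β, was at 752 and 1719 CPM against 275 and 207 CPM (4.93-fold, edgeR adjusted p = 0.0289). Col8a1, a short-chain collagen of vessel walls, was at 348 and 504 CPM against 212 and 208 CPM. Col1a1 did not pass, at 2258 and 2456 against 1733 and 1411 CPM (edgeR adjusted p = 0.0646), and neither did Col3a1 (0.0531). Lox, which crosslinks collagen and elastin, was the 1 call in 18 elastic fiber and crosslinking genes, at 70.0 and 131 against 17.1 and 32.0 CPM. Without the tumor block, and with cells of M above 2 left out, 0 genes of these 3 lists were called by edgeR. With cells of M above 2 left out the list medians were 0.05 (basement membrane), 0.31 (interstitial) and 0.46 (elastic fiber), beside 0.04, 0.31 and 0.27 over all compared cells. The summed matrix CAF markers, at 236 and 576 CPM in Acta2-high against 159 and 224 CPM in Acta2-low cells, moved the same way.

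Proteases and their inhibitors gave 1 higher and 2 lower genes of 22, against 1.17% and 0.607% of all tested genes. Without the tumor block, and with cells of M above 2 left out, 0 were higher and 1 lower. Mmp11, stromelysin 3, a protease typical of tumor stroma, was at 176 and 211 CPM in Acta2-high cells against 566 and 738 CPM in Acta2-low cells (3.24-fold lower, log2 fold change -1.70 ± 0.15, edgeR adjusted p = 0.00418). Serpine2, protease nexin 1, an inhibitor of thrombin and plasminogen activators, was at 6951 and 5669 CPM against 11538 and 10206 CPM (1.67-fold lower, edgeR adjusted p = 0.00703, but a log2 fold change of -0.05 with spike-in scaling). Both were higher in each Acta2-low library than in any Acta2-high one. Adamts1, a protease of proteoglycans, was higher, at 372 and 399 against 193 and 115 CPM. Among 11 angiogenic ligands and receptors, Flt1, a VEGF receptor, was at 346 and 359.7 against 137 and 209 CPM, and Ackr3, a chemokine scavenger, at 112 and 40.0 against 0.515 and 0.602 CPM. Of the Ackr3 reads of the Acta2-high cells of tumor 1, 56.5% came from 1 cell.

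Some cell cycle genes were higher in Acta2-high cells. Cells were called cycling when the mean log2(RPKM + 1) of 8 G2/M genes was at least 2. Of Acta2-high cells, 15 in each tumor were cycling, 12.7% (7.29 to 20.1) and 17.9% (10.4 to 27.7), against 3 cells, 4.48%, and 7 cells, 7.78%, of the Acta2-low ones. The Acta2-low intervals were 0.933 to 12.5 and 3.18 to 15.4, and they overlap those of the Acta2-high cells. All these intervals cover counting error among the cells of 1 tumor only, and the difference in share was not tested. Of 25 tested cell cycle genes 5 were higher and 0 lower (list median log2 fold change 1.17), against 1.17% and 0.607% of all tested genes. The 5 were Ccnb2, Ccna2, Cdc20, Ube2c and Ccnd1. Cdc20 and Ube2c belong to the 8 genes that defined cycling. Ccnd1, the cyclin of G1, was read in 72.9% and 83.3% of Acta2-high and 44.8% and 32.2% of Acta2-low cells. Without the tumor block 0 of the list were called, and 2 with each cell given equal weight or with no filter on genes. With the cycling cells, which these genes helped define, left out, 15 genes could be tested, 1 was called and the list median was 0.55. Mki67 did not pass, at 106 and 99.6 against 56.9 and 96.8 CPM.

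Several lists held few or no calls, where 1.17% of all tested genes were called higher and 0.607% lower. Of 22 hypoxia and glycolysis genes edgeR called 0 (2 with an unadjusted p under 0.05, DESeq2 1 higher), of 27 oxidative phosphorylation genes 0 (6, DESeq2 1 higher), of 22 interferon and MHC class I genes 0 (4, DESeq2 1 lower), and of 28 ribosomal protein genes 0 (0, DESeq2 0). Of 14 chemokine and cytokine genes Cxcl10 was the 1 call (list median 0.98). Among 25 immediate early and dissociation stress genes the 1 call was Klf6 (list median 0.28). Of 10 vascular CAF markers outside the rule Pdgfrb was the 1 call, and of 6 matrix CAF markers outside it Lox. Of the markers of other cell types, Fabp4, a fatty acid-binding protein also present in microvessels, was higher, at 503 and 531 against 199.6 and 224 CPM, Trf, transferrin, was lower, and edgeR called 0 of 4 endothelial, 0 of 7 epithelial, 0 of 2 immune and 0 of 2 myoepithelial genes tested (1, 2, 1 and 1 with an unadjusted p under 0.05, DESeq2 0, 1 lower, 0 and 1 higher). The myoepithelial gene with that p was Cdh3, at 9.61 and 8.76 CPM in Acta2-high and 0 in both Acta2-low libraries (edgeR adjusted p = 0.0573). Trf was at 2.19 and 25.3 against 10.4 and 132 CPM, and it lost its call once cells with a read of Epcam, Pecam1 or Ptprc were left out (edgeR adjusted p = 0.404).

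**Figure D4:**
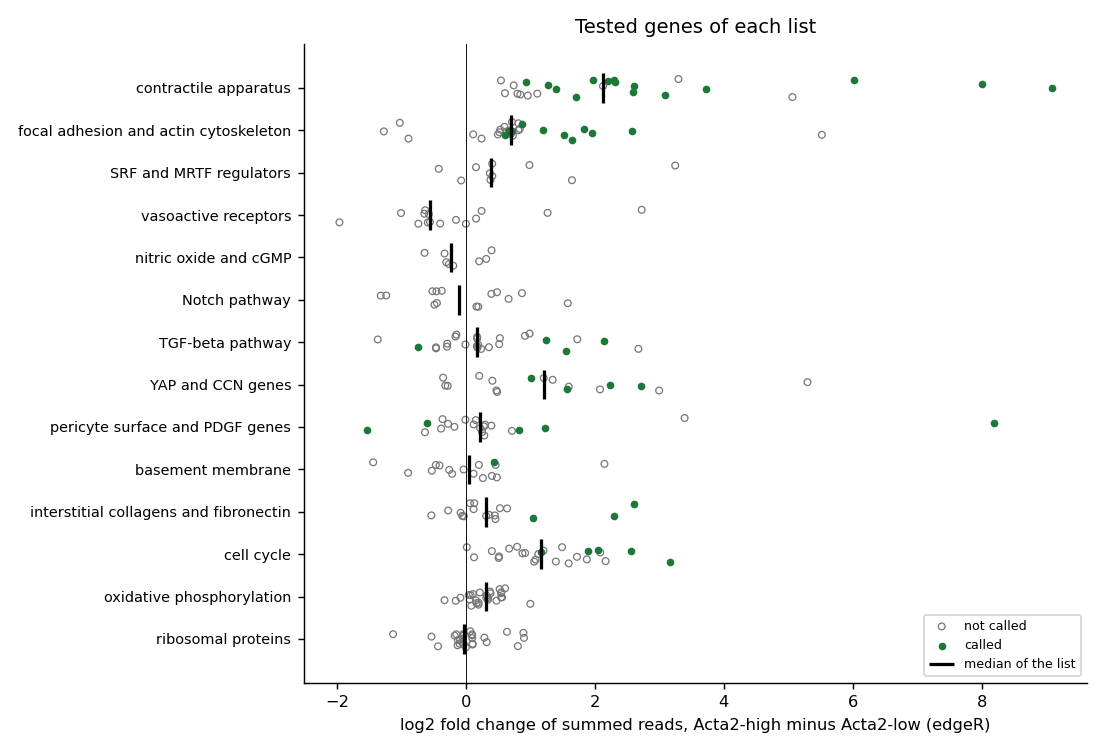
For 14 gene lists, the log2 fold change (Acta2-high over Acta2-low, edgeR) of every tested member as a point, called members filled in green, with the list's median as a black bar. The contractile apparatus has a median of 2.13 with 15 of 25 members called, and the ribosomal proteins have a median of -0.03 with 0 of 28 called.

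Among called genes, the 10 largest fold changes upward were those of Colec11, Tacr3, Chrdl1, Cnn1, Cxcl10, Ildr2, Cdh13, Pdgfb, Fmod and Lmod1, and most rested on few cells. Colec11, a collectin, had 419 and 349 reads in 7 and 5 Acta2-high cells and 0 in Acta2-low cells, at least 154-fold higher against a floor of 3 reads over the Acta2-low group. Tacr3, the neurokinin 3 receptor, had 256 and 377 reads in 7 and 4 cells and 0 in Acta2-low cells, at least 127-fold higher. Both were thus read in few Acta2-high cells of each tumor. Ildr2, a membrane protein, had 1153 and 1125 reads in 22 and 18 Acta2-high cells against 2 and 1 reads in Acta2-low cells. Chrdl1, a BMP antagonist, was read in 6 and 2 Acta2-high cells, and Cdh13, T-cadherin, in 10 and 5. Cxcl10 reads came to 88.2% and 99.9% from 1 Acta2-high cell in each tumor, and with the cell with the most reads of each gene left out Cxcl10, Colec11, Tacr3, Chrdl1 and Cdh13 were not called. Of the 131 higher genes, 11 had 50% or more of their reads from 1 cell, and of the 68 lower genes 5.

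Among called genes, the 10 largest fold changes downward were Aldh1l1, 2810468N07Rik, Bmf, 4932435O22Rik, Chchd10, Zmat4, Trpc4, Bcl2l11, Gadd45a and Scn4b. Bmf, which encodes a pro-apoptotic BH3-only protein, had 43 and 52 reads in 6 and 9 Acta2-high cells against 674 and 1195 reads in 22 and 38 Acta2-low cells, that is 5.08% and 10.7% of cells against 32.8% and 42.2% (30.5-fold lower, log2 fold change -4.93 ± 0.45, edgeR adjusted p = 0.00499). Bcl2l11, which encodes the related BIM, was at 3.47 and 4.63 CPM against 30.8 and 53.4 CPM (9.77-fold lower, edgeR adjusted p = 0.0257). Chchd10, a mitochondrial protein, was at 7.02 and 7.59 CPM against 122 and 117 CPM (15.9-fold lower, edgeR adjusted p = 0.00336). In these 3 genes all Acta2-high libraries were lower than all Acta2-low ones. Scn4b, a sodium channel subunit, was read in 8.47% and 5.95% of Acta2-high and 34.3% and 24.4% of Acta2-low cells. Zmat4 and 4932435O22Rik rested on few cells, and neither these nor 2810468N07Rik and Trpc4 were called with the cell with the most reads of each gene left out.

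Over all vCAF-like cells of a tumor, the 10 genes most like Acta2 by Spearman correlation of log2(RPKM + 1), ranked by the lower of the values in tumors 1 and 2, were Actb, Tagln, Tpm1, Flna, Tpm2, Myl9, Myl12a, Csrp1, Cnn2 and Tpm4. The points are 261 and 235 cells that share depth and plate, and the values are a description. Actb had 0.81 and 0.79, Tagln 0.75 and 0.72 and Tpm1 0.72 and 0.72. Within single classes, each of which spans only part of the range of Acta2, the values of the 10 genes ran from 0.27 to 0.75 in tumor 1 and from 0.38 to 0.80 in tumor 2 among Acta2-high cells, from -0.03 to 0.31 and from -0.08 to 0.36 among Acta2-middle cells, and from -0.02 to 0.45 and from -0.04 to 0.36 among Acta2-low cells. All 10 are genes of actin, its binding proteins or myosin.

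The Acta2-middle cells, which entered no test, lay between the other classes for most called genes. In both tumors the middle CPM fell between the high and low values for 109 of the 131 higher genes (83.2%), 56 of the 68 lower genes (82.4%) and 14 of the 15 called contractile genes. Of all tested genes with the same sign in both tumors, the middle value lay between in 666 of the 3072 that were higher in Acta2-high cells (21.7%) and in 718 of the 3775 that were lower (19%). The called genes were chosen for their difference between the outer classes, which the middle cells did not enter. No share was computed for uncalled genes with differences of like size, so the shares of called and of all genes are not a like comparison.

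Along Acta2 itself, the share of cells with a read differed between the contractile genes. In tumor 1 the share of cells with a Lmod1 read was 0% at Acta2 of 8 or below, 15.8% from 8 to 10, 23.5% from 10 to 11, 33.3% from 11 to 12 and 80.0% from 12 up. In tumor 2 the same shares were 2.22%, 6.56%, 12.9%, 52.6% and 80.0%. Actg2 went from 11.9% and 13.3% in the lowest range to 76.0% and 86.7% in the highest, while Cnn1 reached only 28.0% and 26.7% there. Steap4 ran from 2086 and 1114 CPM in the lowest range to 200 and 245 CPM in the highest, and Bmf from 32.8% and 42.2% of cells to 4.0% and 6.67%. The highest range held 25 and 15 cells. Depth also differed between these ranges, with a median of 169368 and 167794.5 reads in the lowest and of 273861 and 238870 in the highest. With cells thinned to 50000 reads Lmod1 went from 0% and 2.38% of cells in the lowest range to 72.0% and 80.0% in the highest, Actg2 from 4.92% and 5.95% to 76.0% and 86.7%, and Bmf from 31.2% and 38.1% to 0% and 6.67%.

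**Figure D5:**
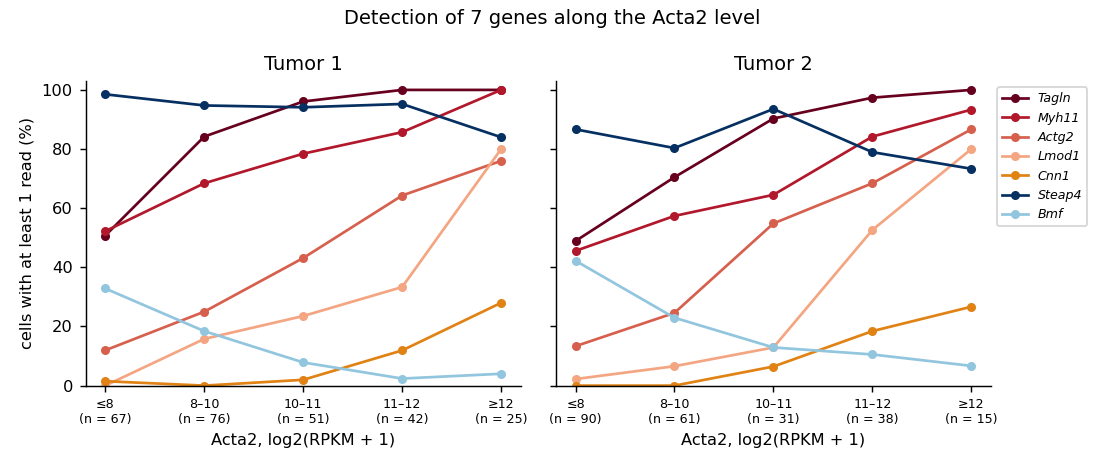
Share of vCAF-like cells with at least 1 read of a gene (percent, vertical axes) across 5 ranges of Acta2 log2(RPKM + 1) (horizontal axes), without thinning, with a panel for each tumor and a line for each of 7 genes. Lmod1 is at 80.0% of cells in the highest range of both tumors and Cnn1 at 28.0% and 26.7%, whereas Bmf is at 4.0% and 6.67%.

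The Acta2-high cells with a Cnn1 read, 13 in each tumor, were described further, without a test because they were singled out after their values were seen. Actg2 was read in 12 of the 13 in each tumor (92.3%), against 53.3% and 62.0% of Acta2-high cells without a Cnn1 read. Lmod1 was read in 69.2% and 53.8% of them, against 35.2% and 40.8% of the others. They also stood higher in Acta2, with medians of 12.2 and 11.7 against 11.03 and 11.1 on the log2(RPKM + 1) scale. Their median Steap4 was 1.40 and 1.37 against 6.86 and 5.66, and their median Kcnj8 7.52 and 5.09 against 8.81 and 8.81, whereas Rgs5 was at 12.4 and 12.4 against 12.5 and 12.5. Their median depth was 281538 and 219671 reads against 219264 and 219564.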

How the data were processed

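Smart-seq2 libraries of 768 single sorted cells from 2 tumors were analysed. The authors aligned reads to mm10 (per the submitters' processing notes) with STAR, and deposited counts per RefSeq gene, raw and with 92 ERCC spike-ins, for 24490 genes. They also deposited RPKM values made with rpkmforgenes. How reads shared by near-identical genes were counted, and whether strand was used, is not given in the sources used here. No per-cell column was left unused (0), no 2 wells held identical counts, and doublets were not called.

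Classes were set on log2(RPKM + 1), with a pseudocount of 1. Counts were summed per class and tumor and compared with edgeR 4.0.16 in R 4.3.3 (quasi-likelihood, TMM, tumor as a block, mean RPKM over compared cells at least 1, Benjamini-Hochberg), leaving out the 13 genes of the rule. The tumor paired the libraries because both classes came from the same animal, and their deviations from the class means correlated at 0.13 across genes. P-values rest on the spread of the class difference between 2 tumors. The variance of each gene was moderated toward that of the other genes, with a median of 5.99 prior degrees of freedom beside 1 residual. The test, tried on simulated counts for Acta2-high against Acta2-low with 11215 genes, recovered 26 of 100 genes changed 2-fold and 85 of 100 changed 8-fold, and called 12 of 11015 unchanged genes. The changed genes were drawn from those with a mean of at least 100 reads per library. Their spread followed the trend over all genes, so recovery of genes with fewer reads or with reads from few cells was not simulated. Intervals and floors (3 reads) cover counting error only, since reads without molecular identifiers are not independent molecules.

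Genes are named when they belong to the gene lists, are among the 10 called genes with the largest change in each direction, or among the 10 most like Acta2. The members and lists were chosen with earlier results of these data known. Alternatives were another size factor, spike-in scaling, equal weight per cell, other gene filters, DESeq2 1.42.0, no block, other Acta2 limits, thinning to 50000 reads, and leaving out cycling cells, cells with M above 2 and cells under 50000 reads. After seeing the data, leaving out cells with a read of Epcam, Pecam1 or Ptprc, and the cell with the most reads of each gene, were added. Some members of the lists are not reported here.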

Additional observations from a re-analysis of the deposited data

How the results depend on the processing

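The 131 higher and 68 lower genes became 4 and 0 at an adjusted p of 0.001 (edgeR, 1510 genes with an unadjusted p under 0.05). They were 33 and 7 without the replicate block, 375 and 255 with DESeq2 and 286 and 223 with a mean RPKM of at least 10. Leaving out cells with M above 2 gave 65 and 17, and leaving out cycling cells 100 and 35. Leaving out the cell with the most reads of each gene, chosen after seeing the data, gave 160 and 106. With spike-in totals 1925 were higher and 61 lower, so that 96.9% of calls were higher against 65.8%, and Pdgfrb reversed to a log2 fold change of 0.10. The cause was not tested. Under the other settings both counts stayed within 1.5 times, and no gene was called in the opposite direction under any setting run. The share of Acta2-high cells ran from 35.7% to 45.2% and that of Acta2-low cells from 25.7% to 38.3% when 1 tumor was left out. Fold changes within 1 tumor have no test. Of 120 fold changes followed, 31 moved with tumor 1 left out and 34 with tumor 2 left out. Moved means a change of sign, or by more than the standard deviation between the tumors. With 2 tumors, 26 of 100 simulated 2-fold changes were recovered, so an uncalled gene is not shown to be equal.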

Other observations

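The lists here were assembled after the values were seen and are given without a test of the list. Their counts therefore cannot be weighed against the share of all tested genes, which is printed for scale only. The genes of caveolae, the membrane pits that are dense on smooth muscle and endothelium, were higher in Acta2-high cells, with 5 of 7 tested called (list median log2 fold change 1.89, beside 0.00 for all genes) and 7 of 7 higher in both tumors, where 1.17% of all tested genes were called higher. Without the tumor block 1 of them was called, and with cells of M above 2 left out 3. Cav1, caveolin 1, their coat protein, was at 1046 and 589 CPM in Acta2-high cells of tumors 1 and 2 against 145 and 58.8 CPM in Acta2-low cells (8.79-fold, edgeR quasi-likelihood test, Benjamini-Hochberg adjusted p = 0.00109). Both Acta2-high libraries exceeded both Acta2-low ones. The others called were Ptrf (cavin 1, 2.85-fold), Sdpr (cavin 2, 10.0-fold), Prkcdbp (cavin 3, 3.71-fold) and Ehd2 (1.70-fold), and Cav2 missed the threshold (edgeR adjusted p = 0.0531).

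Of 14 tested genes of liver X receptor signaling and cholesterol export, 4 were lower and 0 higher in Acta2-high cells (list median -0.31, but 0.38 with spike-in scaling), where 0.607% of all tested genes were called lower. Without the tumor block 1 was called lower, and with cells of M above 2 left out 2. Nr1h3, the receptor LXRα, was at 84.4 and 56.6 CPM against 268 and 179 CPM (3.06-fold lower, edgeR adjusted p = 0.0138). Its targets Abca1 and Abcg1, which export cholesterol, were at 18.97 and 11.2 against 101 and 93.7 CPM and at 69.4 and 58.9 against 212 and 214 CPM. Every Acta2-low library was the higher one. The fourth was Mylip, which degrades the LDL receptor.

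Of 16 tested genes linked to FOXO factors and growth arrest, 6 were lower and 0 higher (list median -1.32): Bcl2l11, Bmf, Gadd45a, Trp53inp1, Fnip1 and Ypel3. Beside the 0.607% of all genes called lower, 1 of the list was called lower without the tumor block and 2 with cells of M above 2 left out. Trp53inp1 was at 62.7 and 64.4 CPM in Acta2-high cells against 177 and 227 CPM in Acta2-low cells, and Ypel3 at 115 and 75.9 against 302 and 218 CPM. With cycling cells left out, 4 of the list were called lower and the list median was -1.23. Bcl2l11 and Gadd45a lost their call there (edgeR adjusted p = 0.0939 and 0.0869), with log2 fold changes of -4.82 and -3.02. Whether cycling accounts for these differences was not tested.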
